A study of Arabidopsis thaliana with 15 samples.

Results

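The genes described here build or modify the polymers of the plant cell wall, and their transcripts were measured in whole Arabidopsis thaliana seedlings. Members are the probe sets with a single listed gene whose symbol is TBL, CESA, GAUT, GATL, IRX, PME, FLA or AGP with a number, or CSL with a letter and a number. Symbols with a species prefix (ATCSLC08) or a suffix (IRX15-L) were taken as well, and XTH and expansin genes were not. This gave 34 of the 22810 probe sets on the array, namely 22 TBL, 8 CSL, 2 IRX, 1 GAUT and 1 PME gene. No named probe set of the CESA, GATL, FLA or AGP families was among them, so those families were not analysed here, and the 34 members stand for 20.4% of the 167 genes that RefSeq lists under these symbols. In practice the members are a set of TBL and CSL genes.

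The seedlings had grown for 5 days in light on solid medium with 1% sucrose. All 5 genotypes are in the WS2 background, with 3 arrays each. The lines called bak1-1D, brs1-1D and bri1-1D below carry the bri1-5 allele together with the named suppressor, bri1-5 carries the receptor allele alone, and WS2 is the wild type. BRI1 is the cell surface receptor of brassinosteroid and bri1-5 is a weak allele of it. BAK1 is the co-receptor kinase and BRS1 a secreted carboxypeptidase-like protein, and bak1-1D and brs1-1D are known as dominant activation-tagged alleles. The levels of BRI1, BAK1 and BRS1 were not analysed here, because no probe set with their names was used, so the labels of the lines were not checked on the targeted genes. Each suppressor is represented by 1 line.

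Brassinosteroid promotes cell expansion, which requires the wall to yield and new wall polymers to be laid down. Cellulose is made at the plasma membrane, whereas the hemicelluloses xyloglucan, xylan and mannan and the pectins are made in the Golgi and secreted. CSLC proteins make the glucan backbone of xyloglucan, CSLA proteins make mannan backbones, and CSLD2 acts in tip-growing root hairs. IRX15-L is needed for normal xylan, GAUT proteins include pectin backbone synthases, and pectin methylesterases (PME) remove methyl groups from pectin in the wall. TBL proteins that have been characterised mostly attach acetyl groups to polysaccharides: TBL28, TBL30, TBL32, TBL34 and TBL35 act on xylan, and TBL23, TBL25 and TBL26 on mannan.

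Expression is given on the log2 scale, as the authors' GCRMA normalization left it. Among the probe sets that passed the low-value filter given below, the median of an array lay between 6.75 and 6.82. Correlations between arrays ran from 0.990 to 0.995 within genotypes across the same probe sets, which are not independent replicates. Markers of shoot and root were both measured, and the leaf antenna gene LHCB4.1 stood at 12.58 to 12.83 and the root hair expansin genes EXPA7 and EXPA18 at 4.66 to 5.65 and 5.23 to 6.05. LHCB4.1 and EXPA7 with EXPA18 were the 1 of 6 leaf and 2 of 8 root markers with a named probe set. The 10 xylem and 5 pollen markers had none. In whole seedlings fewer cells of a type and less RNA per cell cannot be told apart. Probe sets differ in how strongly they bind, so each member is compared only with itself between genotypes.

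Tests were made on probe sets that exceeded a log2 value of 4 in 3 arrays or more, and 25 members passed, 16 TBL, 6 CSL, IRX15-L, GAUT15 and PME61. CSLA01, CSLC12, IRX15, TBL15, TBL19, TBL20, TBL21, TBL42 and TBL43 did not pass, with means over all arrays between 3.18 and 3.69. TBL21 was the member just outside, with 1 array above 4, at 4.05. TBL34 was the member just inside, and it passed through WS2 alone, with 3 WS2 arrays and 0 of 12 mutant arrays above 4, so its difference from WS2 follows in part from the filter. Mean values of tested members ran from 3.92 (TBL34) to 8.39 (TBL25) in the TBL family and from 5.39 (ATCSLC08) to 8.55 (CSLD2) in the CSL family. IRX15-L, GAUT15 and PME61 had means of 5.42, 6.28 and 6.35. The probe set of TBL32 is of the type that can also bind a related transcript.

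Differences are log2 differences of genotype means with the standard error (SE) of 1 limma fit over all 15 arrays, and a call means an adjusted p under 0.05 (Benjamini-Hochberg) among the 15912 probe sets that were tested. Over all genotypes, 11 of the 25 tested members (44.0%) differed by limma's moderated F test, beside 27.1% of all tested probe sets. They were TBL45, TBL38, TBL36, CSLC04, CSLA03, TBL16, IRX15-L, TBL30, CSLD2, ATCSLC08 and TBL34. The count includes TBL34, whose difference follows in part from the filter. No called difference of a member in the 10 pairwise comparisons reached 1 log2 unit, and the largest measured 0.95.

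The comparison of bri1-5 with WS2 asks what the weak receptor allele changes. TBL45 fell most, to 1.86-fold below WS2. TBL30, ATCSLC08, TBL38 and TBL34 fell by smaller amounts, while TBL36 and CSLD2 rose. In all 7 of 25 tested members were called (28.0%), 2 higher and 5 lower, beside 17.6% of all tested probe sets (9.45% higher and 8.14% lower). Apart from TBL34, 6 of 24 were called. The median difference of the members was -0.08, beside 0.02 over all tested probe sets.

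TBL45 (AT2G30010) stood at 7.23, 7.75 and 7.55 on the bri1-5 arrays, against 8.39, 8.49 and 8.34 in WS2. The fall measured 0.90 in log2 units, a difference of -0.90 ± 0.12 (SE, 3 arrays each, limma adjusted p = 0.000206). The groups lay well apart, with the highest bri1-5 array below every WS2 array.

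TBL30 (AT2G40160), a xylan acetyltransferase gene, stood at 5.23, 4.83 and 5.20 in bri1-5, against 5.54, 5.52 and 5.53 in WS2. It fell by 0.44 ± 0.09 (limma adjusted p = 0.00314), and bri1-5 replicate 2 was its lowest array. TBL28 (AT2G40150), the next protein-coding gene on chromosome 2 and also a xylan acetyltransferase gene, differed by -0.01 ± 0.10 and was not called. TBL34 (AT2G38320), of the same xylan group, stood at 3.87, 3.91 and 3.83 in bri1-5, against 4.12, 4.01 and 4.52 in WS2 (-0.35 ± 0.11, limma adjusted p = 0.039). In the xylan group TBL30 was thus lower, and TBL28, TBL32 (0.07) and TBL35 (0.01) were not called. TBL34 was also lower, but it had entered the test through its WS2 arrays alone, close to the threshold of the filter. None of the 3 mannan acetyltransferase genes was called by limma (TBL23 at 0.22, TBL25 at -0.08, TBL26 at -0.22).

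TBL38 (AT1G29050), described as a pectin acetylesterase of seed coat mucilage cells, stood at 7.33, 7.59 and 7.59 in bri1-5, against 7.79, 7.86 and 7.92 in WS2. It fell by 0.35 ± 0.08 (limma adjusted p = 0.00921) with no overlap of arrays. TBL36 (AT3G54260) went the other way, with 8.39, 8.34 and 8.49 in bri1-5 against 8.14, 8.05 and 8.06 in WS2, a rise of 0.32 ± 0.08 (limma adjusted p = 0.0115). Every bri1-5 array of TBL36 lay above every WS2 array.

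Among the CSL genes 1 of 6 fell and 1 rose. ATCSLC08 (AT2G24630), of the xyloglucan backbone family, stood at 5.27, 5.32 and 5.15 in bri1-5, against 5.57, 5.72 and 5.66 in WS2, and fell by 0.41 ± 0.10 (limma adjusted p = 0.00818). The other tested CSLC genes were not called (CSLC04 at -0.05, CSLC5 at -0.17, CSLC6 at 0.12). CSLD2 (AT5G16910), which acts in root hairs, stood at 8.64, 8.57 and 8.71 in bri1-5, against 8.43, 8.27 and 8.29 in WS2, and rose by 0.31 ± 0.09 (limma adjusted p = 0.0298). Beside it, the root hair markers EXPA7 and EXPA18 differed by -0.36 ± 0.16 and -0.35 ± 0.14, in the opposite direction, and were not called. IRX15-L (-0.13 ± 0.13), GAUT15 (-0.05 ± 0.07) and PME61 (-0.09 ± 0.11) were not called either.

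The calls of TBL45, TBL30 and ATCSLC08 held whichever array was left out, while that of TBL36 was lost without bri1-5 replicate 3 (adjusted p = 0.0593), that of TBL38 without bri1-5 replicate 1 (0.0506), and that of CSLD2 without WS2 replicate 2 or 3 or bri1-5 replicate 1 or 3 (up to 0.111) and after median centring (0.0511). The call of TBL34 was lost without WS2 replicate 3 or any bri1-5 array (up to 0.187) and in a fit to just these 6 arrays (0.0935), and 4 members were called in all without bri1-5 replicate 1 and also without replicate 3.

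**Figure D1:**
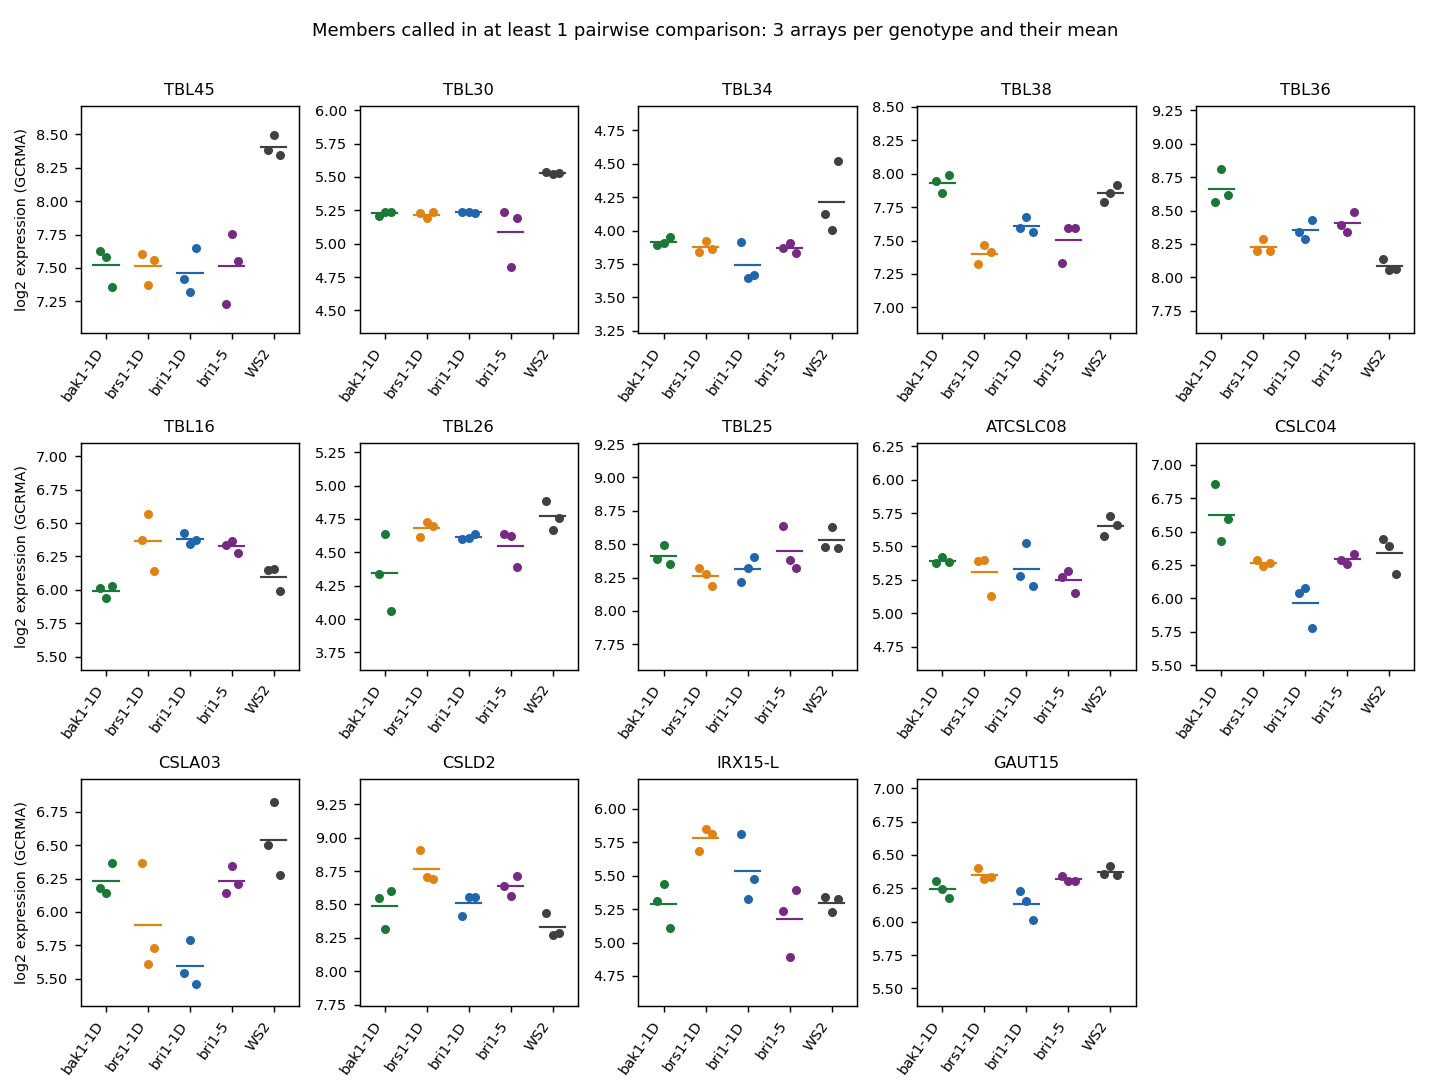
Log2 expression (GCRMA, vertical axis) of the 14 members called in at least 1 of the 10 pairwise comparisons, by genotype; each point is 1 array and each line the mean of 3. TBL45 lies between 7.23 and 7.75 on the 12 mutant arrays and at 8.34 or above in WS2, whereas TBL38 in bak1-1D (7.85 to 7.99) overlaps WS2 and lies above bri1-5.

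The suppressor lines were then set against bri1-5, which asks what each suppressor changes in the mutant. These 3 comparisons share the bri1-5 arrays with each other and with the comparison of bri1-5 with WS2. In bak1-1D, TBL38 rose and no other member was called. In brs1-1D, IRX15-L rose and no other member was called. In bri1-1D no member was called by limma. In each of the 3 comparisons 4 members had an unadjusted p under 0.05, and the share over all tested probe sets is not given.

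In bak1-1D, TBL38 stood at 7.95, 7.85 and 7.99, against 7.33, 7.59 and 7.59 in bri1-5. It rose by 0.42 ± 0.08 (SE, n = 3 against 3, limma adjusted p = 0.00804), and the call held whichever array was left out. All bak1-1D arrays of TBL38 lay above all bri1-5 arrays, and against WS2 the line differed by 0.08 ± 0.08 (limma adjusted p = 0.625). The 1 call among 25 members (4.0%) stood beside 4.34% of all tested probe sets (2.94% higher and 1.40% lower). The members' median was 0.00, beside -0.04 over all tested probe sets.

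Other members had arrays in bak1-1D that lay apart from bri1-5 without a call. TBL16 (AT5G20680) stood at 6.01, 5.94 and 6.03 in bak1-1D, against 6.33, 6.36 and 6.28 in bri1-5 (-0.33 ± 0.09, limma adjusted p = 0.0571). It was called lower with the replicate block (0.0424), with array weights (0.0257), with the stricter filter (0.0438), in a fit to just the bak1-1D and bri1-5 arrays (0.0401), and without brs1-1D replicate 2 (0.0278) or 3 (0.0262). CSLC04 (AT3G28180), a xyloglucan backbone synthase gene, stood at 6.86, 6.43 and 6.59 in bak1-1D, against 6.29, 6.25 and 6.33 in bri1-5 (0.33 ± 0.11, adjusted p = 0.0961). TBL36 stood at 8.56, 8.81 and 8.62 in bak1-1D, against 8.39, 8.34 and 8.49 in bri1-5 (0.26 ± 0.08, adjusted p = 0.0872), so that its arrays in bak1-1D lay further from WS2 than those of bri1-5. EXPA7 and EXPA18 differed by 0.53 ± 0.16 (adjusted p = 0.0688) and 0.35 ± 0.14 (0.182) in bak1-1D against bri1-5, and their part in the members' values was not tested. TBL45 differed by 0.01 ± 0.12, TBL30 by 0.14 ± 0.09 and ATCSLC08 by 0.15 ± 0.10.

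In brs1-1D, IRX15-L (AT5G67210) stood at 5.68, 5.85 and 5.81, against 5.24, 4.89 and 5.39 in bri1-5. It rose by 0.61 ± 0.13 (limma adjusted p = 0.0287), with no overlap of arrays. Beside it, the root hair markers EXPA7 and EXPA18 differed by 0.63 ± 0.16 (adjusted p = 0.0517) and 0.33 ± 0.14 (0.257) in the same comparison, also with no overlap and not called, and their part in the result was not tested. The xylan synthase gene GUT2, listed also as IRX10, differed by -0.10 ± 0.11 in the same comparison and was not called. The call of IRX15-L was lost without bri1-5 replicate 1 or 2 or brs1-1D replicate 2 or 3 (adjusted p up to 0.102), which left 0 members called. The 1 call among 25 members (4.0%) stood beside 1.72% of all tested probe sets (1.18% higher and 0.534% lower). TBL38 (-0.11 ± 0.08), TBL45 (0.00 ± 0.12), TBL36 (-0.18 ± 0.08) and CSLA03 (-0.33 ± 0.17) were not called.

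In bri1-1D 0 of 25 members were called, beside 0.245% of all tested probe sets (0.0691% higher and 0.176% lower). The largest difference was that of CSLA03 (AT1G23480), of the mannan synthase family, which stood at 5.54, 5.79 and 5.46 in bri1-1D, against 6.14, 6.34 and 6.21 in bri1-5 (-0.63 ± 0.17, limma adjusted p = 0.15). CSLC04 stood at 6.04, 6.07 and 5.77 in bri1-1D, against 6.29, 6.25 and 6.33 in bri1-5 (-0.33 ± 0.11, adjusted p = 0.276). For both genes every bri1-1D array lay below every bri1-5 array. Here and elsewhere, the share of all tested probe sets with arrays apart in this way was not counted, so such separation is a description. IRX15-L differed by 0.36 ± 0.13 and GAUT15 by -0.19 ± 0.07, neither of them called. EXPA7 and EXPA18 differed by -0.04 ± 0.16 and -0.02 ± 0.14 in bri1-1D against bri1-5.

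**Figure D2:**
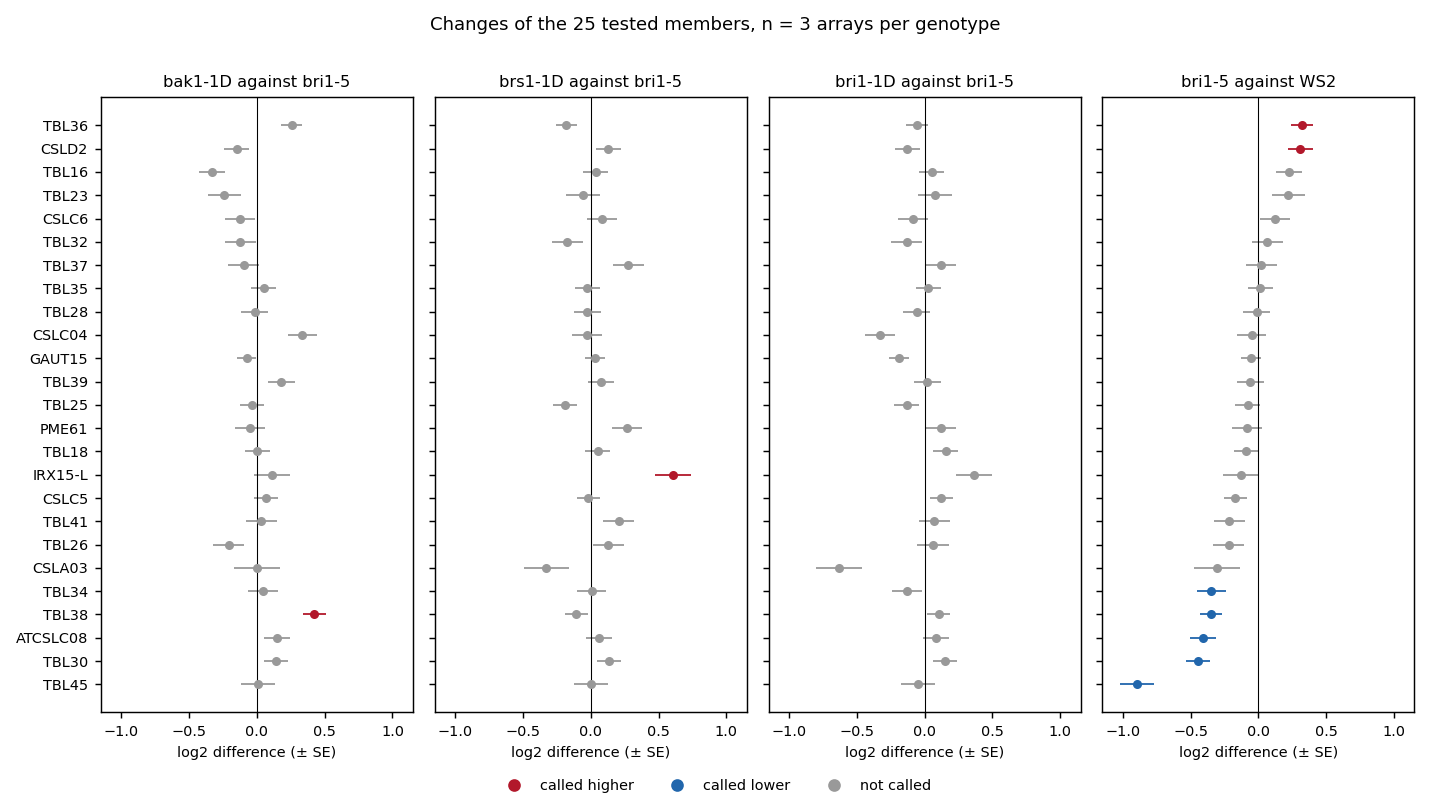
Log2 difference (horizontal axis, ± SE) of each of the 25 tested members in the suppressor lines against bri1-5 and in bri1-5 against WS2, ordered by the last comparison, with called members in colour. Only TBL38 in bak1-1D and IRX15-L in brs1-1D are coloured in the suppressor panels, while the panel of bri1-5 against WS2 shows 2 called higher and 5 lower.

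Against WS2, the suppressor lines show how far each lay from the wild type. These comparisons share the WS2 arrays, also with the comparison of bri1-5 with WS2, so their values are given side by side. TBL45 and TBL30 were called lower than WS2 in bri1-5 and in all 3 suppressor lines. ATCSLC08, TBL34 and TBL38 were called lower in brs1-1D, bri1-1D and bri1-5 and not in bak1-1D. TBL36 was called higher in bak1-1D, bri1-1D and bri1-5.

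TBL45 stood at 7.63, 7.58 and 7.36 in bak1-1D, at 7.60, 7.38 and 7.56 in brs1-1D, and at 7.42, 7.32 and 7.65 in bri1-1D, against 8.39, 8.49 and 8.34 in WS2. Its differences were -0.89 ± 0.12 (limma adjusted p = 0.000412), -0.89 ± 0.12 (0.000125) and -0.95 ± 0.12 (8.88e-05) in this order. All 12 mutant arrays lay at least 0.59 below every WS2 array, and the 4 mutant lines overlapped each other. All 4 calls held whichever array was left out.

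TBL30 stood at 5.19 to 5.24 on 11 of the 12 mutant arrays, against 5.52 to 5.54 in WS2. On bri1-5 replicate 2 it stood at 4.83. The same value, 5.2342, was given for bri1-5 replicate 1, bri1-1D replicate 1, bak1-1D replicate 3 and brs1-1D replicate 3. Values repeated between arrays in other members too, among them GAUT15 (6.3082), TBL28 (5.4614), TBL36 (8.1992) and TBL26 (4.6344). The cause of the repeats was not tested, and the narrow range of TBL30 is not read as precision. The differences of TBL30 were -0.30 ± 0.09 in bak1-1D (limma adjusted p = 0.0433), -0.31 ± 0.09 in brs1-1D (0.0213) and -0.29 ± 0.09 in bri1-1D (0.0295). TBL30 arrays of the 4 mutant lines lay at least 0.28 below every WS2 array. The SE of the fit, which borrows spread from other probe sets and from bri1-5, exceeds the spread within these 3 lines.

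TBL34 stood at 3.89, 3.90 and 3.95 in bak1-1D, at 3.84, 3.92 and 3.86 in brs1-1D, and at 3.91, 3.64 and 3.67 in bri1-1D, against 4.12, 4.01 and 4.52 in WS2. It was lower in brs1-1D (-0.34 ± 0.11, limma adjusted p = 0.0376) and bri1-1D (-0.48 ± 0.11, 0.00641), and in bak1-1D it differed by -0.30 ± 0.11 (0.0951). ATCSLC08 stood at 5.38, 5.42 and 5.38 in bak1-1D, at 5.39, 5.40 and 5.13 in brs1-1D, and at 5.28, 5.52 and 5.20 in bri1-1D, against 5.57, 5.72 and 5.66 in WS2. It fell by 0.35 ± 0.10 in brs1-1D (limma adjusted p = 0.0171) and by 0.32 ± 0.10 in bri1-1D (0.0263), and differed by -0.26 ± 0.10 in bak1-1D (0.0978). For both genes every mutant array lay below every WS2 array, and bak1-1D did not differ by a call from the other 2 suppressor lines. For TBL34 that separation follows from the way it passed the filter, through the WS2 arrays alone, and is no added evidence.

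TBL38 did differ between lines. It stood at 7.33, 7.46 and 7.41 in brs1-1D and at 7.59, 7.68 and 7.56 in bri1-1D, against 7.79, 7.86 and 7.92 in WS2. It fell by 0.45 ± 0.08 in brs1-1D (limma adjusted p = 0.00119) and by 0.25 ± 0.08 in bri1-1D (0.0482). Set directly against the other suppressor lines, TBL38 was higher in bak1-1D than in brs1-1D by 0.53 ± 0.08 (adjusted p = 0.0011) and than in bri1-1D by 0.32 ± 0.08 (0.0235).

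TBL36 stood at 8.56, 8.81 and 8.62 in bak1-1D, at 8.20, 8.29 and 8.20 in brs1-1D, and at 8.34, 8.29 and 8.43 in bri1-1D, against 8.14, 8.05 and 8.06 in WS2. It rose by 0.58 ± 0.08 in bak1-1D (limma adjusted p = 0.000403) and by 0.27 ± 0.08 in bri1-1D (0.0273), and differed by 0.14 ± 0.08 in brs1-1D (0.23). All 12 mutant arrays of TBL36 lay above every WS2 array. TBL36 was also higher in bak1-1D than in brs1-1D by 0.44 ± 0.08 (adjusted p = 0.00326) and than in bri1-1D by 0.31 ± 0.08 (0.0222).

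The CSL genes gave calls in brs1-1D and bri1-1D. CSLA03 stood at 6.18, 6.14 and 6.37 in bak1-1D, at 6.37, 5.61 and 5.73 in brs1-1D, and at 5.54, 5.79 and 5.46 in bri1-1D, against 6.50, 6.83 and 6.28 in WS2. It fell by 0.94 ± 0.17 in bri1-1D, 1.92-fold (limma adjusted p = 0.00124), and by 0.63 ± 0.17 in brs1-1D (0.0141), where replicate 1 lay within the WS2 range. In bak1-1D CSLA03 differed by -0.31 ± 0.17 (0.272), the same as in bri1-5. CSLC04 stood at 6.04, 6.07 and 5.77 in bri1-1D, against 6.45, 6.39 and 6.18 in WS2, and fell by 0.38 ± 0.11 (0.0218). In bak1-1D CSLC04 differed by 0.29 ± 0.11 (0.106), and between bak1-1D and bri1-1D by 0.66 ± 0.11 (0.00106).

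CSLD2 stood at 8.91, 8.71 and 8.69 in brs1-1D, against 8.43, 8.27 and 8.29 in WS2, and rose by 0.44 ± 0.09 (limma adjusted p = 0.00307). Beside it, EXPA7 and EXPA18 differed by 0.27 ± 0.16 and -0.03 ± 0.14 in brs1-1D against WS2, and neither was called. CSLD2 in bak1-1D (8.55, 8.32 and 8.60) and in bri1-1D (8.42, 8.55 and 8.56) overlapped WS2 and was not called. The part of root hairs in the CSLD2 values was not tested.

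Further members were called against WS2 in a single line. IRX15-L rose by 0.48 ± 0.13 in brs1-1D, against 5.34, 5.23 and 5.33 in WS2 (limma adjusted p = 0.0169), and TBL25, a mannan acetyltransferase gene, fell by 0.27 ± 0.09 in that line (0.0465), with 8.32, 8.27 and 8.18 against 8.48, 8.63 and 8.47 in WS2. TBL26, of the same mannan group, fell by 0.43 ± 0.12 in bak1-1D (0.0288), with 4.33, 4.63 and 4.06 against 4.88, 4.67 and 4.76 in WS2. In bri1-1D, GAUT15 of the pectin family fell by 0.24 ± 0.07 (0.0295), with 6.23, 6.16 and 6.01 against 6.36, 6.42 and 6.35 in WS2. TBL16 rose by 0.28 ± 0.09 in bri1-1D (0.0443), with 6.42, 6.34 and 6.37 against 6.15, 6.15 and 5.99 in WS2. Of these, IRX15-L in brs1-1D differed by test from bak1-1D (bak1-1D minus brs1-1D -0.50 ± 0.13, 0.0298), and TBL16 in bri1-1D from bak1-1D (bak1-1D minus bri1-1D -0.39 ± 0.09, 0.0162). TBL25, TBL26 and GAUT15 did not differ by a call between suppressor lines. Against WS2, TBL16 also differed by 0.26 ± 0.09 in brs1-1D (limma adjusted p = 0.0578) and 0.23 ± 0.09 in bri1-5 (0.108). In bak1-1D TBL16 differed by -0.11. TBL25 differed from WS2 by -0.21 ± 0.09 in bri1-1D (0.11), -0.12 in bak1-1D and -0.08 in bri1-5. Neither gene was called between brs1-1D and bri1-1D, so a call in 1 line is not read as a trait of that line.

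In total 4 of 25 members were called in bak1-1D against WS2 (16.0%), 1 higher and 3 lower, beside 10% of all tested probe sets (4.88% higher and 5.14% lower). In brs1-1D it was 9 (36.0%), 2 higher and 7 lower, beside 20.4% (10.9% higher and 9.46% lower), and apart from TBL34 it was 8 of 24, 6 of them lower. In bri1-1D it was 10 (40.0%), 2 higher and 8 lower, beside 20.7% (10.4% higher and 10.3% lower), and apart from TBL34 it was 9 of 24, 7 of them lower. The members' medians were -0.09, -0.04 and -0.06, beside -0.02, 0.01 and 0.02 over all tested probe sets.

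Some calls of the suppressor lines against WS2 held whichever array was left out. In bak1-1D they were those of TBL36 and TBL45, and in brs1-1D those of CSLD2, TBL38 and TBL45. In bri1-1D they were those of CSLA03, TBL34 and TBL45. The filter was not applied again in these fits. TBL34 had passed it through the WS2 arrays alone, so its kept call is still that of a gene picked in part for being high in WS2. In bak1-1D the call of TBL26 was lost without WS2 replicate 1 or 3 or bak1-1D replicate 1 or 3 (adjusted p up to 0.13) and in a fit to just these 6 arrays (0.0775), and that of TBL30 without any WS2 or bak1-1D array, bri1-1D replicate 2 or brs1-1D replicate 1 or 3 (up to 0.113). The bak1-1D count was 2 without WS2 replicate 1 or 3 or bak1-1D replicate 1 or 3. In brs1-1D, calls were lost without WS2 replicate 2 for IRX15-L, ATCSLC08, CSLA03, TBL25 and TBL30, without brs1-1D replicate 2 for IRX15-L, CSLA03, TBL25, TBL30 and TBL34, and without brs1-1D replicate 3 for ATCSLC08, CSLA03, TBL25 and TBL34. WS2 replicate 1 also decided TBL25 and TBL30, WS2 replicate 3 decided TBL25, TBL30 and TBL34, and brs1-1D replicate 1 decided TBL25 and TBL34. The adjusted p reached 0.168 for TBL25, 0.18 for TBL34, 0.0842 for ATCSLC08, 0.0767 for CSLA03, 0.0614 for IRX15-L and 0.0603 for TBL30. TBL25 was also lost without bri1-5 replicate 2, bri1-1D replicate 2 or any bak1-1D array. The brs1-1D count was 4 without WS2 replicate 2 or brs1-1D replicate 2. In bri1-1D, the call of TBL16 was lost on leaving out any array but brs1-1D replicates 2 and 3 (adjusted p up to 0.163), and that of TBL38 on leaving out any but bri1-5 replicates 1 and 2 and brs1-1D replicate 1 (up to 0.148). That of TBL30 was lost without any WS2 or bri1-1D array (up to 0.0716). GAUT15 was lost without any WS2 array or bri1-1D replicate 2 or 3 (up to 0.121), and CSLC04 without WS2 replicate 1 or 2 or bri1-1D replicate 3 (up to 0.0972). TBL36 (up to 0.0933) and ATCSLC08 (up to 0.104) were lost without WS2 replicate 2 or 3 or bri1-1D replicate 1 or 3. The bri1-1D count was 3 without WS2 replicate 2 or bri1-1D replicate 3, 4 without WS2 replicate 3, and 5 without WS2 replicate 1 or bri1-1D replicate 1.

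**Figure D3:**
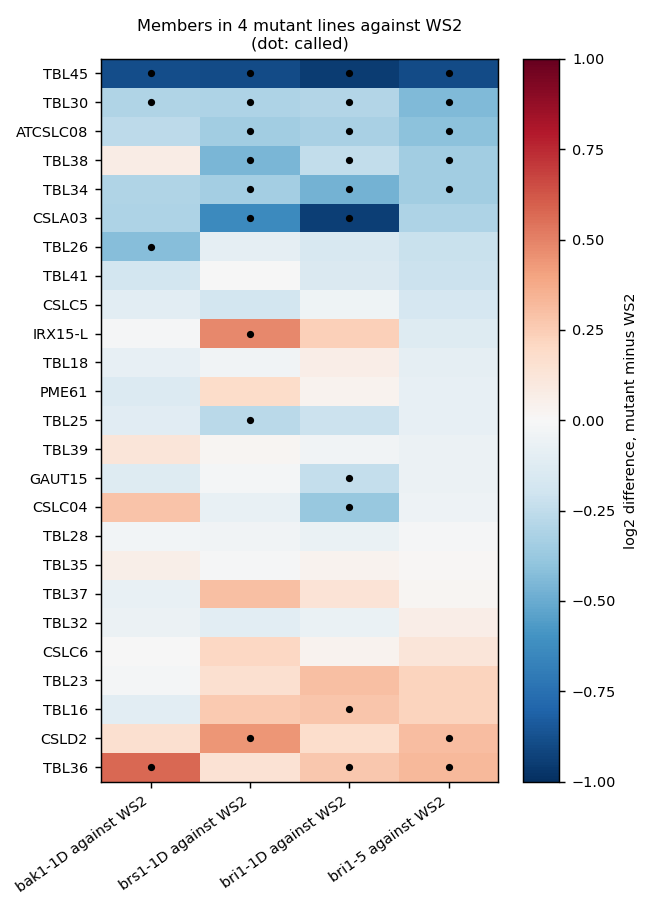
Log2 difference (colour scale, mutant minus WS2) of the 25 tested members in 4 mutant lines, with a dot where the member was called; the comparisons share the 3 WS2 arrays. TBL45 is dark in all 4 columns (-0.95 to -0.89), and TBL38 is pale in bak1-1D (0.08) and blue in the other columns.

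**Figure D4:**
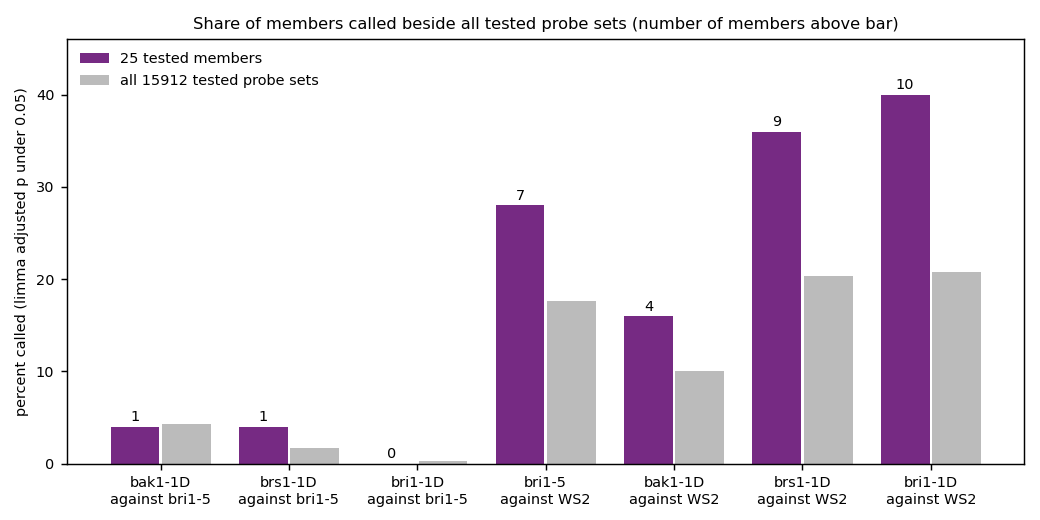
Percent of the 25 tested members and of all 15912 tested probe sets called by limma in 7 comparisons, with the number of members above each bar. Against WS2 the members' bars stand at 16.0% to 40.0% beside 10% to 20.7%, and against bri1-5 at 0 to 4.0% beside 0.245% to 4.34%.

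Set directly against each other, the suppressor lines differed at 4 of 25 members between bak1-1D and brs1-1D (2 higher and 2 lower), beside 7.98% of all tested probe sets (3.99% higher and 3.99% lower). Between bak1-1D and bri1-1D 5 members were called (4 higher and 1 lower), beside 10.1% (5.85% higher and 4.27% lower). Between brs1-1D and bri1-1D limma called 0, beside 2.17% (1.34% higher and 0.836% lower). There 4 members had an unadjusted p under 0.05, for which no share over all tested probe sets is given. Beside these, the root hair marker EXPA7 was higher in bak1-1D than in bri1-1D (0.57 ± 0.16, limma adjusted p = 0.029) and in brs1-1D than in bri1-1D (0.67 ± 0.16, 0.0329), and its part in the members' values was not tested.

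The other 11 tested members were called in none of the 10 pairwise comparisons by limma. They were CSLC5, CSLC6, PME61, TBL18, TBL23, TBL28, TBL32, TBL35, TBL37, TBL39 and TBL41, and their differences ran from -0.37 to 0.30. The xylan acetyltransferase gene TBL35 varied least, between 5.48 and 5.77 over all 15 arrays, and TBL28 lay between 5.30 and 5.71. TBL37 came closest to a call, with -0.37 ± 0.11 in bak1-1D against brs1-1D (adjusted p = 0.0568). TBL23 differed by 0.30 ± 0.12 in bri1-1D against WS2 (0.0991) and PME61 by -0.32 ± 0.11 in bak1-1D against brs1-1D (0.0932). The SE of a member's difference ran from 0.07 to 0.17, so with 3 arrays a group small differences could not be resolved.

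The tested members most like TBL45, the member with the largest fall in bri1-5, were ATCSLC08 (Pearson r = 0.689) and TBL34 (0.666) over the 15 arrays. For TBL36, the member with the largest rise, they were TBL39 (0.356) and CSLC04 (0.302). These values are descriptions over arrays of 5 genotypes that share 1 normalization. TBL45 was picked for its fall from WS2, and TBL34 had passed the filter through its WS2 arrays alone. Their likeness is thus in part built in.

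Some wall genes carry a family name only as a RefSeq synonym and are not among the 34. They are ATPMEPCRB (PME41), AT4G02300 (PME39, below the filter), GUT2 (IRX10) and AT2G31110 (TBL40). ATPMEPCRB (AT4G02330), a pectin methylesterase gene reported to respond to brassinosteroid in the cold, differed between bak1-1D and the other lines. It stood at 9.04, 8.68 and 8.91 in bak1-1D, at 7.50, 7.53 and 7.82 in brs1-1D, at 7.64, 7.31 and 6.96 in bri1-1D and at 7.71, 7.89 and 7.88 in bri1-5, against 8.43, 8.36 and 8.39 in WS2. It fell by 0.57 ± 0.14 in bri1-5 against WS2 (limma adjusted p = 0.011), and rose by 1.05 ± 0.14 in bak1-1D against bri1-5 (0.00063), where it also lay 0.48 ± 0.14 above WS2 (0.0401). ATPMEPCRB fell against WS2 in brs1-1D (-0.78 ± 0.14, 0.00108) and bri1-1D (-1.09 ± 0.14, 7.74e-05), and bak1-1D exceeded brs1-1D by 1.26 ± 0.14 (9.22e-05) and bri1-1D by 1.57 ± 0.14 (9.23e-06). The PME member under the symbol rule, PME61, was not called in any of these comparisons. The rise above WS2 in bak1-1D was lost without any 1 of 6 arrays (WS2 replicates 1 to 3, bri1-5 replicate 3, bak1-1D replicates 1 and 3, adjusted p up to 0.147), and the other 6 calls of ATPMEPCRB held whichever array was left out.

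AT2G31110 has a pair of probe sets with differences of like sign and size in bri1-5 against WS2, on either side of the threshold. The first was called lower (-0.50 ± 0.17, limma adjusted p = 0.0491) and the other was not called (-0.40 ± 0.15, 0.0687). The first call was lost on leaving out any array but WS2 replicate 1, bri1-5 replicate 2 and bri1-1D replicate 3 (up to 0.218). Both were lower in brs1-1D (-0.49 ± 0.17 and -0.51 ± 0.15) and in bri1-1D (-0.64 ± 0.17 and -0.57 ± 0.15) against WS2, and neither was called in bak1-1D (-0.37 ± 0.17 and -0.40 ± 0.15). In brs1-1D the call of the first was lost on leaving out any array but WS2 replicate 1, bri1-5 replicates 1 and 2 and bri1-1D replicate 3 (up to 0.147), and that of the other without WS2 replicate 2 or 3 or brs1-1D replicate 3 (up to 0.089). In bri1-1D the call of the first was lost without WS2 replicate 2 or 3 (up to 0.0569), and that of the other without WS2 replicate 3 or bri1-1D replicate 1 (up to 0.0564). GUT2 lay between 5.60 and 6.07 on all arrays and was called in none of the 10 comparisons.

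Partners of the same pathways were read from lists of other wall genes. Of 12 cellulose synthesis partners 5 were tested, COB, the companion genes AT1G45688 and AT5G42860 and the STELLO genes AT2G41770 and AT3G57420, and limma called 0 of them in the 7 comparisons, with 0 of 35 unadjusted p-values under 0.05 (list medians of -0.05 to 0.05). Of 11 pectin partners 1 was tested, AT5G15740 (RRT1), which makes the rhamnogalacturonan backbone. It stood at 6.72, 6.68 and 6.46 in bak1-1D and at 7.18, 7.19 and 7.01 in bri1-5, against 6.75, 6.77 and 6.69 in WS2. AT5G15740 rose by 0.39 ± 0.10 in bri1-5 against WS2 (limma adjusted p = 0.017) and fell by 0.51 ± 0.10 in bak1-1D against bri1-5 (0.0106). The first call was lost without WS2 replicate 3 or bri1-5 replicate 1 or 2 (up to 0.0589), the other without bri1-5 replicate 2 or bak1-1D replicate 3 (up to 0.0537). In brs1-1D and bri1-1D AT5G15740 differed by 0.26 and 0.25 from WS2 and by -0.13 and -0.14 from bri1-5, without a call. It was lower in bak1-1D than in brs1-1D (-0.38 ± 0.10, limma adjusted p = 0.0348) and bri1-1D (-0.37 ± 0.10, 0.0355). Both calls were lost without replicate 2 or 3 of either compared line (up to 0.149). The lists of 6 xyloglucan, 10 xylan and 14 nucleotide sugar genes had 0 tested members.

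**Figure D5:**
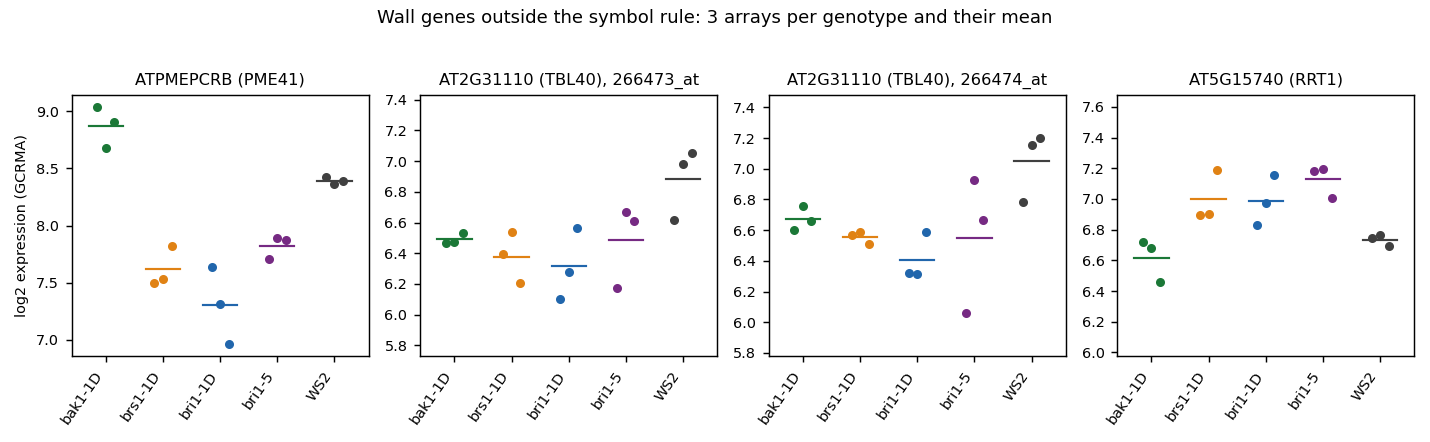
Log2 expression (GCRMA, vertical axis) by genotype of wall genes outside the symbol rule, with 1 point per array and a line at the mean of 3. ATPMEPCRB has its highest mean in bak1-1D (8.68 to 9.04) and its lowest in bri1-1D (6.96 to 7.64), while AT5G15740 has its lowest in bak1-1D (6.46 to 6.72).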

How the data were processed

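Each deposited number is a log2 value for 1 probe set of an Affymetrix array. The authors made it with GCRMA, per the submitters' processing notes, a method that subtracts background by probe sequence and puts arrays on 1 distribution. No version or settings are stated in the sources used here. Values ran from 2.01 to 13.50, no 2 arrays were identical, and the number of arrays limits the precision. Replicate numbers come from the titles. The design text calls the arrays of a genotype biological replicates, and the p-values measure the spread between these arrays.

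Genes were named from the platform table (13513 probe sets with 1 gene, 503 with several), and the 34 members were matched to RefSeq (TAIR10.1). A model with 1 mean per genotype was fitted with limma 3.58.1 in R 4.3.3, without the 64 controls, and tested on simulated data. Same-number arrays of bri1-5 deviated together with those of WS2, brs1-1D and bri1-1D (every correlation 0.103 to 0.346). There the block by replicate number changed no call. In each of the other 7 genotype pairs at least 1 correlation was 0.0769 or lower.

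The members, lists, role groups and tests were chosen with earlier results of these data known. Named members are those called in bri1-5 against WS2 (up to 10 each way), in a suppressor line against bri1-5 (up to 6) or WS2 (up to 4), the extremes of each family by mean, and the 2 most alike. Others were named after their values were seen. Alternatives were the replicate block, no filter, a filter at log2 above 6, median centring, array weights, the compared genotypes alone and leaving out each array. Other member rules were added after seeing the data.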

Additional observations from a re-analysis of the deposited data

Results flagged for a closer look

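The level of a member differed between suppressor lines in 9 cases, by the direct test of 1 line against the other in the same limma fit. Each of them was bak1-1D minus another line. Of the members named here, only TBL38 (in bak1-1D) and IRX15-L (in brs1-1D) were called in a suppressor line against bri1-5. TBL38 was higher in bak1-1D than in brs1-1D (0.53, adjusted p = 0.0011) and than in bri1-1D (0.32, 0.0235), and TBL36 likewise (0.44, 0.00326, and 0.31, 0.0222). TBL16 was lower in bak1-1D than in brs1-1D (-0.37, 0.0229) and than in bri1-1D (-0.39, 0.0162). CSLC04 (0.66, 0.00106) and CSLA03 (0.63, 0.0262) were higher in bak1-1D than in bri1-1D, and IRX15-L was lower in bak1-1D than in brs1-1D (-0.50, 0.0298). These counts of 4 and 5 of 25 members (16.0% and 20.0%) stood beside 7.98% and 10.1% of all tested probe sets. Between brs1-1D and bri1-1D, limma called 0 members, beside 2.17% of all tested probe sets. At an unadjusted p under 0.05 there were 4 members, and no share over all tested probe sets is given at that threshold.

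The differences of TBL38 and TBL36 between bak1-1D and brs1-1D and of CSLC04 between bak1-1D and bri1-1D held whichever array was left out. TBL16 was lost between bak1-1D and bri1-1D without bak1-1D replicate 2 (0.0667), and between bak1-1D and brs1-1D without any bak1-1D array or brs1-1D replicate 1 or 2 (up to 0.105). IRX15-L was lost without bak1-1D replicate 1 or 3 or brs1-1D replicate 2 or 3 (up to 0.126). Between bak1-1D and bri1-1D, TBL36 was lost without bri1-1D replicate 1 or 2 or bak1-1D replicate 2 (up to 0.116), TBL38 without bri1-1D replicate 1 or 3 or bak1-1D replicate 1 or 3 (up to 0.0872), and CSLA03 without bri1-1D replicate 1 or 3 or any bak1-1D array (up to 0.0959).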

How the results depend on the processing

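No member's called difference changed sign in any alternative. Of the 41 member calls over 10 comparisons, 41 held with the replicate block, 40 with array weights, 39 after median centring, 37 without the filter, 29 in a fit of the compared genotypes alone, and all 27 that could be tested with log2 above 6. Leaving out 1 array ended 122 of 615 calls refitted. In these fits without 1 array, counts of members called ran from 4 to 7 in bri1-5 against WS2, 1 to 2 in bak1-1D, 0 to 1 in brs1-1D and always 0 in bri1-1D against bri1-5, 2 to 4, 4 to 10 and 3 to 9 in these lines against WS2, and 7 to 12 for any difference among genotypes. With log2 above 6, fewer members were tested, and the counts were 4 in bri1-5 against WS2, 2 and 0 in bak1-1D and brs1-1D against bri1-5, 2 in bak1-1D against WS2 and 7 for any difference. In bak1-1D against bri1-5 the count was 2 with the replicate block, with array weights and in the fit of the 6 arrays alone, each time by TBL16, and 2 when synonyms were taken, by ATPMEPCRB. In brs1-1D against bri1-5 it was 0 with plain symbols, which leave out IRX15-L. In bri1-1D against WS2 it was 4 in the fit of the 6 arrays alone. Where neither fewer tested members nor another member rule accounts for a count by construction, the cause was not tested. Further calls gained with the replicate block, each against WS2, were ATCSLC08 in bak1-1D (0.0448), TBL16 in brs1-1D (0.0433) and TBL23 in bri1-1D (0.0251). Same-number correlations with WS2 were -0.115 to 0.235 for bak1-1D, -0.134 to 0.157 for brs1-1D and 0.0769 to 0.344 for bri1-1D. TBL34 was called in bak1-1D with array weights (0.0497), and TBL16 in brs1-1D with log2 above 6 (0.0484).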
